A study of Mus musculus with 6 samples.

Results

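The imprinted genes described here are a list of 10: the non-coding RNAs Meg3 and Rian of the Dlk1-Dio3 locus, and Cdkn1c, H19, Igf2, Peg3, Peg10, Snrpn, Igf2r and Grb10 from other imprinted loci. Members were the entries of the expression table whose name equals a listed symbol, and 9 of the 10 were present among 12826 entries. Snrpn has no entry under its own name and is described through an entry joined with Snurf, and 1 further joined entry names Meg3 together with 2 microRNA genes. All 9 members passed the filter on low values, an average of 1 FPKM or more across the 6 libraries, which 10914 entries passed. FPKM counts fragments per kilobase of transcript relative to library size, and levels are given as log2(FPKM + 1) unless FPKM is named. Where 3 values stand together they are for embryos A, B and C in that order. The list was drawn up because of differences between posterior and anterior libraries already seen in these data, so those differences are given below as a description, without a test.

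The study measured RNA in ETX-embryos, embryo-like structures that form in culture from mouse embryonic stem cells, trophoblast stem cells and stem cells of the extraembryonic endoderm (XEN). Cells, per the labels' protocols, aggregated and grew in a sequence of culture media with no added treatment, the trophoblast part was cut off, and the embryonic part was split lengthwise. The anterior group holds the 3 pieces without GFP and the posterior group the 3 pieces with GFP, and each of the 3 ETX-embryos, A, B and C, gave 1 library to each group. All pieces carry the same T/Brachyury-GFP reporter, so the activity of T chose the groups, and strain, sex and passage are not stated. XEN-derived endoderm surrounds the embryonic part of such structures, and the protocol names no step that removed it.

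Imprinted genes are transcribed mainly from 1 parental copy, and the copies are told apart by DNA methylation laid down on one of them in the egg or the sperm. At the Dlk1-Dio3 locus the maternal copy makes the non-coding RNAs Meg3, Rian and Mirg, which carry microRNAs and small nucleolar RNAs, and the paternal copy makes the protein-coding genes Dlk1, Rtl1 and Dio3. Silencing of Meg3 and Rian by methylation is a well-known variable trait of mouse pluripotent stem cell lines, and Igf2, H19 and Cdkn1c are classic regulators of fetal and placental growth.

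In RefSeq GRCm38.p6, Meg3 lies on chromosome 12 at 109540996 to 109571729. Rian follows after 32.2 kb, at 109603945 to 109661716, and Mirg after a further 73.3 kb, at 109734981 to 109749458. Besides Meg3, Rian and the joined Meg3 entry, 2 further entries belong to the locus: Mir673, and an entry that joins Mirg with Mir369, Mir410, Mir412 and Mir485. Dlk1, Rtl1 and Dio3 are not analysed here. The RefSeq model of Rtl1 overlaps both Meg3 and Rian, and Smart-seq2 libraries do not mark strand, so reads from overlapping transcripts cannot be told apart.

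**Figure D1:**
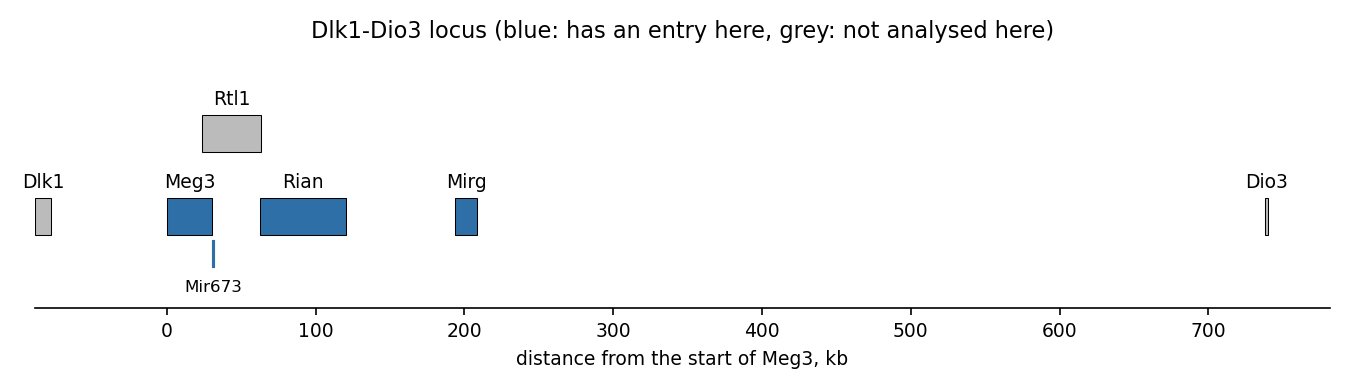
Map of the Dlk1-Dio3 locus in RefSeq gene models, with distance from the start of Meg3 in kb on the x axis. Blue genes have an entry in the table and grey genes are not analysed here. Meg3 and Rian are 32.2 kb apart, and Mirg lies 73.3 kb beyond Rian.

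The microRNAs named in these entries are shown because they identify the transcripts that the entries counted. Smart-seq2 primes on poly(A) tails, so the values are of longer transcripts over the hairpins, not of mature microRNAs. Of these microRNA genes and their copies, 8 symbols matched RefSeq, with 12 mature names and 12 different seeds, so no 2 of them share a seed. Mature sequences from RefSeq GRCm38.p6 follow from 5′ to 3′, with the seed (bases 2 to 8) in capitals; for the Mirg entry the 3p arms are given.
mmu-miR-1906: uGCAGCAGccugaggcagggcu
mmu-miR-770-5p: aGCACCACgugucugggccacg
mmu-miR-770-3p: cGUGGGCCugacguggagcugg
mmu-miR-673-5p: cUCACAGCucugguccuuggag
mmu-miR-673-3p: uCCGGGGCugaguucugugcacc
mmu-miR-485-3p: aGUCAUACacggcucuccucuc
mmu-miR-412-3p: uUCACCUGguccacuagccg
mmu-miR-369-3p: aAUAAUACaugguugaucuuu
mmu-miR-410-3p: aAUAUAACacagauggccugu
The Mir770 hairpin lies in an exon of Meg3 in GENCODE (chromosome 12, 109563692 to 109563785), and that of Mir673 just beyond the end of Meg3 (109571990 to 109572080). In GENCODE, whose Mirg model starts further upstream than that of RefSeq, the hairpins of Mir485 and Mir410 lie in Mirg exons and those of Mir412 and Mir369 at the edge of one. The Mir485 hairpin (109734902 to 109734974) ends just before the RefSeq start of Mirg. The joined entry names Mir1906-2, which RefSeq places on chromosome X (88759474 to 88759553, minus strand), while Mir1906-1, with the same mature sequence, lies in a Meg3 exon (109544541 to 109544620). Which of the 2 copies the joined entry covers is not stated.

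The libraries differed in ways that bear on all values. Entries above 0 numbered 9335 to 11082 in the anterior libraries and 10260 to 12141 in the posterior ones. Relative depth, read from the steps of low FPKM values, was 1 to 1.43 in anterior and 1.56 to 2.82 in posterior libraries, while absolute depth is unknown. The pairs of anterior B with posterior A and with posterior B were off these depths by 1 log2, so the order of depths is uncertain. The posterior minus anterior difference of the median tested gene was 0.43 (0.91, 0.02 and 0.17 in embryos A, B and C). In embryo C the T values went against the labels, at 5.44 in the library labelled anterior and 0 in the library labelled posterior, while Mixl1, a primitive streak factor, was at 0 in all 3 anterior libraries and at 4.97 to 6.99 in the posterior ones. Posterior minus anterior, limma called 0 of 10914 genes (0%) at an adjusted p under 0.05; at an unadjusted p under 0.05, 7.24% were higher in posterior and 0.788% higher in anterior libraries.

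Meg3 and Rian were near or at 0 in every anterior library and well above it in every posterior one. Meg3, a non-coding RNA of the maternal copy, was at 0.20, 0 and 0 anteriorly and at 8.37, 5.66 and 4.87 posteriorly. In FPKM this was 0.149 in anterior A, listed at 0 for B and C, and 330, 49.6 and 28.3 posteriorly. The groups did not overlap, and within the posterior group embryo A was far above the others: Meg3 ranked at the 97.7th percentile of all entries there, against the 85.4th in B and the 75.6th in C. The posterior minus anterior difference was 6.23 ± 1.72 (SD over 3 embryos).

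Rian, the non-coding host of small nucleolar RNAs downstream of Meg3, was at 0.84, 0 and 0 anteriorly and at 5.26, 3.85 and 3.69 posteriorly. Its embryos kept the order of Meg3 but with a smaller spread, and the difference was 3.98 ± 0.38 (SD, n = 3). Within the posterior libraries Meg3 exceeded Rian by 3.12 in A, 1.81 in B and 1.18 in C, a difference in log2 level between genes already scaled to length. Meg3 and Rian passed the filter through the posterior group alone, so that they differed between groups follows from their presence in the fit. In bulk pieces such as these, fewer cells making an RNA and less of it per cell cannot be told apart.

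The joined Meg3 entry also separated the groups, but it overlaps Meg3 and is not an independent measure. Like Meg3, it passed the filter through the posterior group alone. The joined entry was at 1.35, 0.09 and 0.46 anteriorly and 6.25, 4.60 and 6.71 posteriorly, a difference of 5.22 ± 0.91 (SD, n = 3). Here posterior C was highest, not posterior A. The joined entry lay 2.12 and 1.06 below Meg3 in posterior A and B and 1.84 above it in posterior C (-1.84 as Meg3 minus the joined entry), and how reads were divided between these overlapping entries is uncertain.

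The 2 remaining entries of the locus were less uniform, and both passed the filter through the posterior group alone. Mirg with its microRNAs was at 0 throughout the anterior group and at 5.21, 1.86 and 0 posteriorly. Mir673 also had 0 throughout the anterior group, with 3.19, 3.25 and 0 posteriorly. Both were listed at 0 in posterior C, where Meg3 and Rian were present at 28.3 and 11.9 FPKM. Their differences were 2.36 ± 2.64 and 2.15 ± 1.86 (SD, n = 3), each no larger or little larger than its spread.

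**Figure D2:**
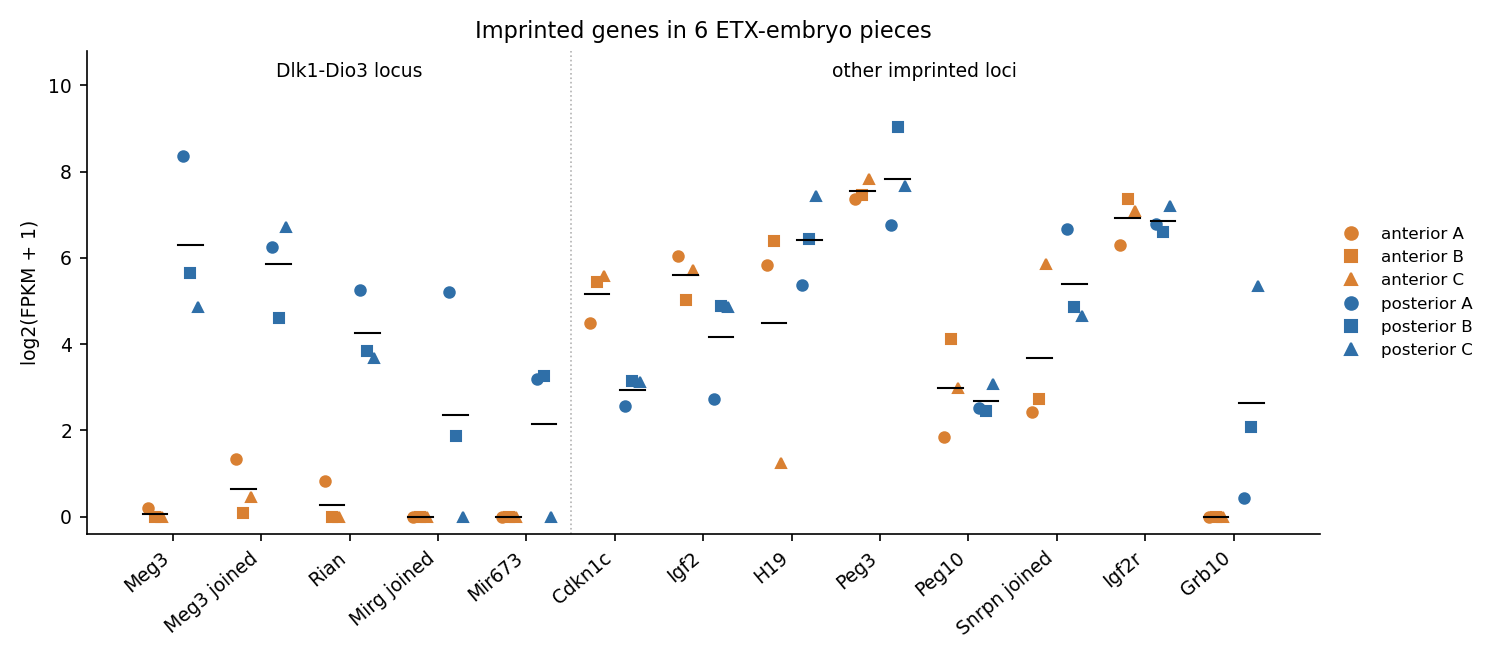
Level of each member and of the related joined entries in 6 libraries, in log2(FPKM + 1), with anterior in orange, posterior in blue, symbols for embryos and a black line at each group mean. Meg3, its joined entry and Rian separate the groups without overlap, Cdkn1c separates them in the other direction, and the groups overlap for Peg3, Peg10 and Igf2r.

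A promoter window each of Meg3 and Rian is shown because both RNAs were near 0 in all anterior libraries and CG dinucleotides are the bases that imprint methylation marks. Each window runs from 250 bases before to 50 after the start in RefSeq GRCm38.p6, 5′ to 3′ on the plus strand, with CG in capitals. Meg3 has 2 windows. The upstream one, shown here (chr12:109540746-109541045), holds 13 CG, and 62.1% of 32851 such windows hold fewer. The downstream one (chr12:109545148-109545447) holds 1 CG, and 5.43% of windows hold fewer. The Rian window (chr12:109603695-109603994) holds 0 CG, against a median of 7 over all windows.
Meg3: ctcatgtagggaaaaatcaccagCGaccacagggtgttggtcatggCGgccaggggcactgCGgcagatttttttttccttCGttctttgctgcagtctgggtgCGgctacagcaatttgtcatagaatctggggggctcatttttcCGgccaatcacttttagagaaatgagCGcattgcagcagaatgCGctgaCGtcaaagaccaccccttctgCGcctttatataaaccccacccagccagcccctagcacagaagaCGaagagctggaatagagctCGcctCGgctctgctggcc
Rian: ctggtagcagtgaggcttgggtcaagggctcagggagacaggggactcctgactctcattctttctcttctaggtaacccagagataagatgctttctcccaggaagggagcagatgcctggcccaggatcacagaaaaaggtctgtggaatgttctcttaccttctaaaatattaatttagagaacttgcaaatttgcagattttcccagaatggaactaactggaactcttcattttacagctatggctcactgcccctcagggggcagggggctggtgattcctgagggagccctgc
TGCCGC, the core sequence bound by the imprint protector ZFP57 when methylated, was searched on both strands; it contains a CG and so overlaps that count. It occurs 1 time in the upstream Meg3 window and 0 times in the downstream Meg3 window and the Rian window, and 11.6% of all windows hold it. A match is a description of the letters and not a site of binding. Methylation was not measured, and its part in the Meg3 and Rian values was not tested. Of the listed members, 7 have a window in the table; among the others, the Igf2r window holds 34 CG and the upstream Grb10 window 45.

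Cdkn1c went the other way. It encodes p57, a cyclin-dependent kinase inhibitor made from the maternal copy, and lies on chromosome 7 at 143458339 to 143461059. It was at 4.48, 5.45 and 5.57 anteriorly and at 2.56, 3.16 and 3.12 posteriorly, or 21.3, 42.6 and 46.5 against 4.90, 7.91 and 7.67 FPKM. The lowest anterior value lay above the highest posterior one. The difference was -2.22 ± 0.27 (SD, n = 3), at -1.92, -2.29 and -2.45 in embryos A, B and C.

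Igf2 and H19 share an imprinting control region on chromosome 7, where the paternal copy makes Igf2, a fetal growth factor, and the maternal copy makes the non-coding RNA H19. Igf2 (142650768 to 142666816) was at 6.05, 5.03 and 5.71 anteriorly and 2.74, 4.89 and 4.86 posteriorly. The groups did not overlap, but only just: the lowest anterior value was 5.03 and the highest posterior value 4.89. The difference of -1.43 ± 1.67 (SD, n = 3) was within its spread, and without embryo A it was -0.49.

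H19 (142575530 to 142578146, 72.6 kb from Igf2) was at 5.84, 6.38 and 1.25 anteriorly and at 5.37, 6.45 and 7.44 posteriorly. The groups overlapped, and the difference of 1.93 ± 3.70 (SD, n = 3) came from embryo C, at 6.19 against -0.46 and 0.06 in A and B. With the library of anterior C left out it was 0.31, and without embryo C it was -0.20. H19 exceeded Igf2 in all 3 posterior libraries, by 2.64, 1.55 and 2.57, and H19 minus Igf2 was -0.22, 1.35 and -4.46 in the anterior ones.

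Grb10, an adaptor that restrains insulin and IGF receptor signalling (chromosome 11, 11930499 to 12037428), was at 0 in all 3 anterior libraries. Posteriorly it was at 0.44, 2.08 and 5.36. The order of embryos was the reverse of that of Meg3, and the difference was 2.63 ± 2.50 (SD, n = 3), or 1.26 without embryo C. Like Meg3 and Rian, it passed the filter through the posterior group alone.

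The joined Snrpn and Snurf entry, a paternally expressed gene of the Prader-Willi region, was at 2.44, 2.72 and 5.86 anteriorly and 6.67, 4.86 and 4.66 posteriorly. Embryos A and B were higher in posterior, by 4.23 and 2.14, and embryo C was lower (-1.20). The mean difference was 1.72 ± 2.74 (SD, n = 3), with overlap, and 0.47 without embryo A.

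The remaining members showed no separation of the groups. Peg3, a paternally expressed zinc finger gene (chromosome 7, 6703892 to 6730462), was at 7.35, 7.45 and 7.83 anteriorly and 6.77, 9.02 and 7.66 posteriorly, a difference of 0.28 ± 1.14 (SD, n = 3). Igf2r, the maternally expressed receptor that clears IGF2 (chromosome 17, 12682406 to 12769706), was at 6.30, 7.37 and 7.08 against 6.79, 6.59 and 7.20, a difference of -0.06 ± 0.65. Peg10, a paternally expressed gene derived from a retrotransposon (chromosome 6, 4747306 to 4760517), was at 1.86, 4.12 and 2.99 against 2.53, 2.45 and 3.08, a difference of -0.30 ± 1.22. All 3 sets of values overlapped between groups, and each difference was smaller than its SD.

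Over the 6 libraries Peg3 had the highest level, 7.68 ± 0.75 (SD, n = 6), followed by Igf2r at 6.89 ± 0.40. H19 at 5.45 ± 2.17, Igf2 at 4.88 ± 1.16 and Cdkn1c at 4.05 ± 1.29 came next. Meg3 at 3.18 ± 3.61, Peg10 at 2.84 ± 0.77, Rian at 2.27 ± 2.27 and Grb10 at 1.31 ± 2.14 were lowest. Each gene's range overlapped that of its neighbour in this order.

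**Figure D3:**
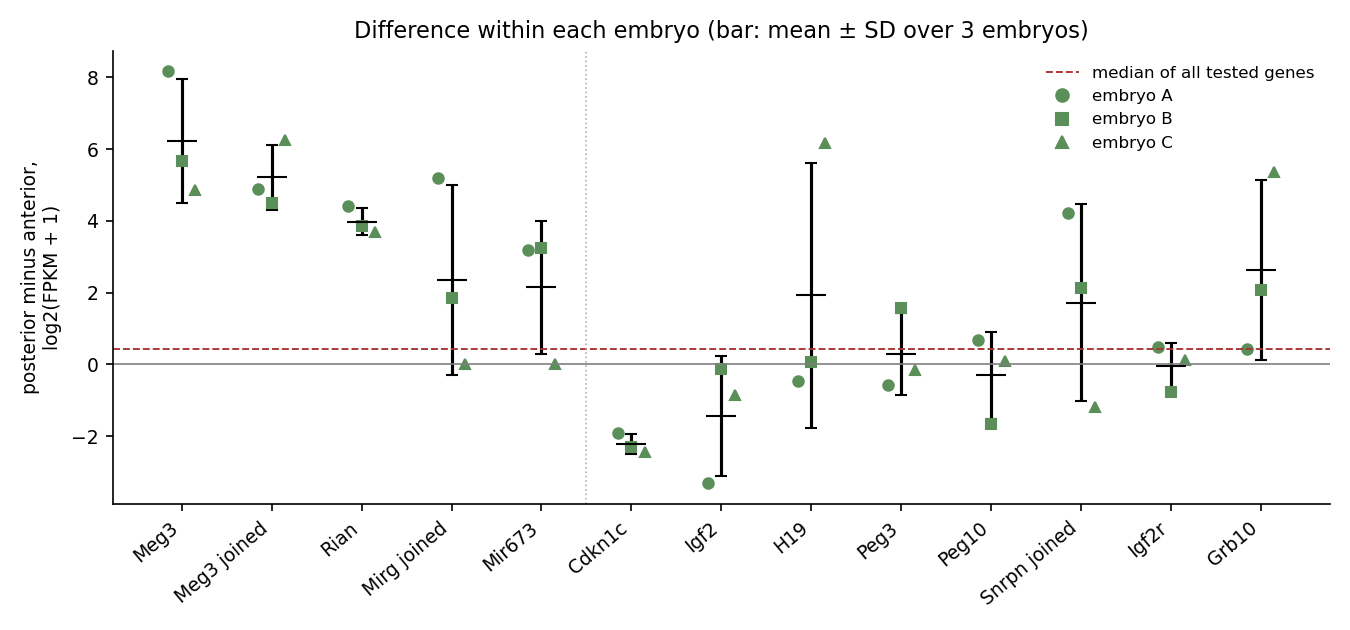
Posterior minus anterior difference within each embryo, in log2(FPKM + 1), for the members and related joined entries; green symbols are embryos, black marks the mean ± SD over 3 embryos, and the dashed red line is the median of all tested genes at 0.43. The differences of Meg3, its joined entry and Rian are at least 3.69 in all 3 embryos, and those of Cdkn1c run from -1.92 to -2.45.

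The mean of Meg3 and Rian exceeded the pooled mean of the other members in each embryo. The mean difference of Meg3 and Rian was 6.29, 4.75 and 4.28 in embryos A, B and C, or 5.11 ± 1.05 (SD, n = 3). The mean over the 7 other members present was -0.67, -0.16 and 1.18, or 0.12 ± 0.96. It pools opposite directions, from Cdkn1c at -2.22 to Grb10 at 2.63. In embryo C, H19 (6.19) and Grb10 (5.36) differed more than Meg3 (4.87) and Rian (3.69), and the rest of these members less. The gap between the 2 means was 4.99 ± 1.93, at 6.96, 4.92 and 3.10. Over all 5 entries of the Dlk1-Dio3 locus the mean was 3.99 ± 1.12. The members were chosen on this contrast, so the gap describes the list and tests nothing.

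Of the 9 members, 3 (Meg3, Rian and Grb10) had all posterior libraries above all anterior ones, as did 12.3% of all tested genes, and they were also the 3 members higher in posterior in 3 of 3 embryos, as were 21.5% of tested genes. Cdkn1c and Igf2, 2 of 9, had all anterior libraries above all posterior ones, as did 3.77% of tested genes. With embryo C left out because of its T values, the mean difference of Meg3 and Rian was 5.52, and that of Cdkn1c was -2.10.

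Differences among embryos were not used to choose the members and were tested. At an unadjusted p under 0.05, limma's F test called 302 genes (2.77%), and at an adjusted p under 0.05 it called 0 (0%). None of the 9 members or related entries passed either threshold, with adjusted p between 0.996 and 0.998 and unadjusted p between 0.203 and 0.749. Meg3, Rian, Grb10, the joined Meg3 entry, Mirg and Mir673 were low in the anterior libraries and passed the filter through the posterior group alone. Their embryos could differ mainly in posterior libraries, and the fit counts part of such a spread as residual. For these entries the test could hardly call a difference, so nothing is concluded from it. The test rests on 2 residual degrees of freedom per gene, with 7.5 more drawn from all genes.

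Beyond the members, 33 other imprinted genes from a list of 69 were in the fit. None passed at an adjusted p under 0.05. At an unadjusted p under 0.05, 2 were higher in posterior and 0 higher in anterior libraries, against 7.24% and 0.788% of all tested genes. Their median difference was 0.26 (range -1.99 to 3.47) beside 0.43 over all genes. By their mean, 19 were higher in posterior and 14 in anterior libraries, while 64.9% of all tested genes were higher in posterior. The median was 0.28 over 13 maternally expressed and 0.23 over 18 paternally expressed genes.

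The 2 genes below an unadjusted p of 0.05 were Commd1 and Ndn. Commd1, a copper and trafficking protein next to Zrsr1, was at 0, 5.43 and 4.24 anteriorly and 7.22, 6.64 and 6.22 posteriorly (limma difference 3.47 ± 1.14 SE, adjusted p = 0.551), and without embryo A the difference was 1.59. Ndn, a neuronal growth regulator of the Prader-Willi region, was at 0, 3.92 and 0 against 4.50, 3.78 and 5.05 (limma difference 3.14 ± 1.20 SE, adjusted p = 0.603). Its difference was 2.45 without embryo A, 4.78 without embryo B and 2.18 without embryo C. Commd1 and Ndn were both listed at 0 in anterior A, the library with the lowest relative depth.

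The next by p were Cd81 (1.44 ± 0.66 SE), Tssc4 (2.08 ± 1.11), Magel2 (1.39 ± 0.89) and Mcts2 (-1.99 ± 1.27), none of which passed. Tssc4 was listed at 0 in anterior A and differed by 0.86 without embryo A, and Mcts2 by 0.12 without embryo C. Cd81 and Tssc4 belong to the Kcnq1 domain, as Cdkn1c does. Phlda2, a maternally expressed placental growth regulator of the same domain, was at 6.34, 6.73 and 6.51 anteriorly and 5.05, 6.75 and 9.59 posteriorly, with overlap. Nap1l4, also of that domain, was at 5.24, 6.25 and 6.01 against 5.13, 4.83 and 5.09.

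The most abundant imprinted genes outside the list were Impact at 8.41 ± 1.01 (SD, n = 6), Gnas at 7.97 ± 0.55, Phlda2 at 6.83 ± 1.50, Cd81 at 6.43 ± 0.94, Ube3a at 6.26 ± 0.57 and Nap1l4 at 5.42 ± 0.57. Impact restrains the amino acid starvation response, Gnas encodes a stimulatory G protein subunit and Ube3a a ubiquitin ligase. Airn, the paternal non-coding RNA antisense to Igf2r, was at 0.76, 5.85 and 4.52 anteriorly and 3.23, 2.25 and 1.59 posteriorly; it was named after its values were seen, as the antisense partner of a member.

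**Figure D4:**
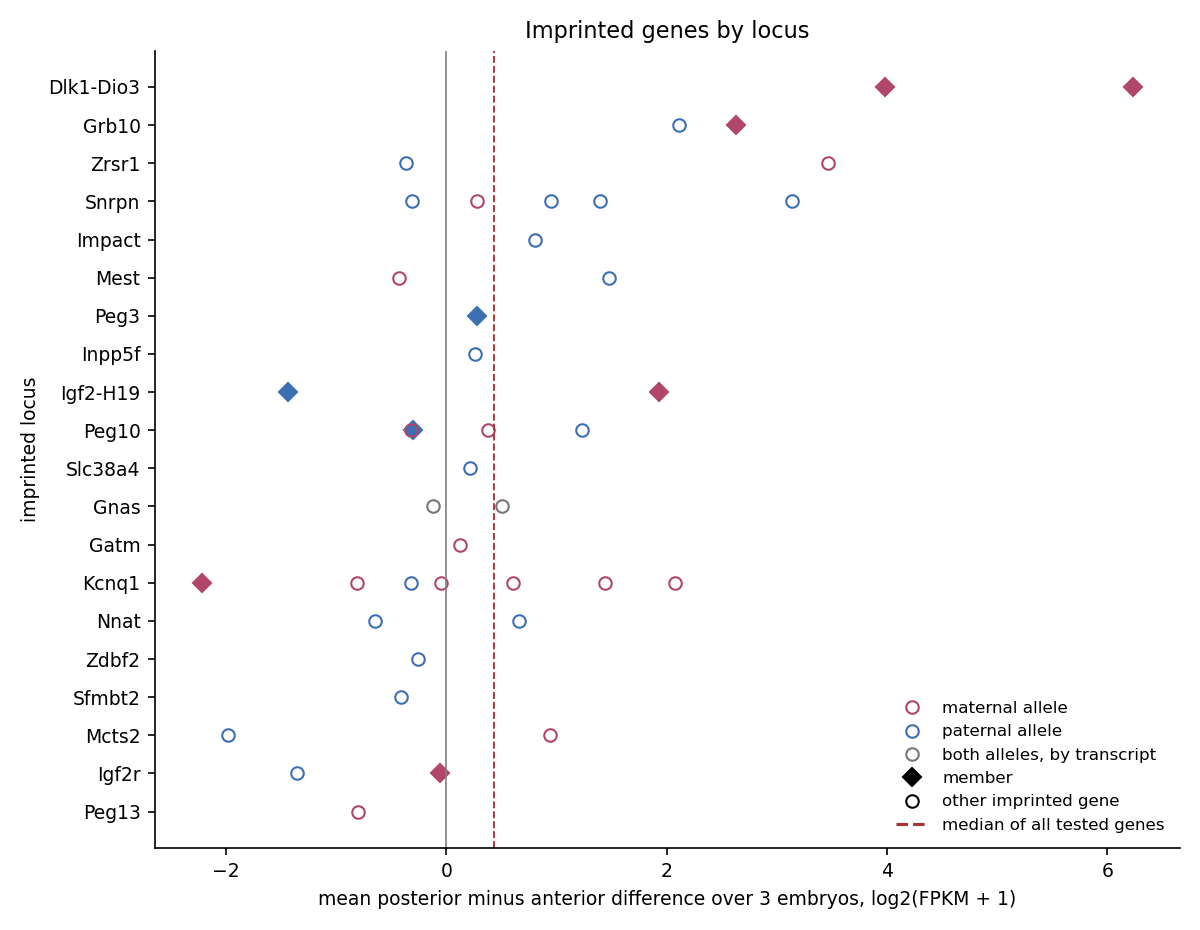
Mean posterior minus anterior difference over 3 embryos, in log2(FPKM + 1), for the 9 members (diamonds) and 33 other imprinted genes (circles), 1 row per locus, coloured by the expressed allele; the dashed red line is the median of all tested genes. Meg3 and Rian lie at 6.23 and 3.98, and all other imprinted genes shown lie between -2.22 and 3.47.

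Genes that guard imprints were described next. Of 17 in the fit, 0 passed at an adjusted p under 0.05, 14 had a higher mean in posterior libraries, beside 64.9% of all tested genes, and the median difference was 0.39, beside 0.43 over all tested genes. At an unadjusted p under 0.05, 1 was higher in posterior and 1 in anterior libraries, where all tested genes gave 7.24% and 0.788%. Trim28, the co-repressor recruited by ZFP57, was at 3.34, 4.33 and 5.50 anteriorly and 6.51, 6.15 and 7.55 posteriorly (2.34 ± 0.72 SE, adjusted p = 0.551 by limma). Tet2, an enzyme that oxidises methylated cytosine, was at 5.19, 4.86 and 4.42 against 3.27, 2.80 and 0.64 (-2.59 ± 0.92 SE, adjusted p = 0.571 by limma). Both were called only before adjustment. Trim28, Setdb1 and Cbx5, 3 of the 17, had all posterior libraries above all anterior ones, as did 12.3% of all tested genes. Tet2, 1 of the 17, had all anterior libraries above all posterior ones, as did 3.77% of all tested genes. Zfp57 itself differed by -0.01 ± 1.03 SE.

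Of 15 other IGF signalling genes in the fit, 0 passed after adjustment. By their mean, 7 were higher in posterior and 8 in anterior libraries, while 64.9% of all tested genes were higher in posterior. Their median difference was -0.03, beside 0.43 over all tested genes. Igfbp3, which binds IGFs outside the cell, was at 0.20, 0 and 4.87 anteriorly and 6.02, 6.09 and 5.84 posteriorly (4.30 ± 1.14 SE, adjusted p = 0.521 by limma). It was the 1 gene of the 15 below an unadjusted p of 0.05, where 7.24% of all tested genes were higher in posterior. Igfbp5, another IGF-binding protein, differed by -1.96 ± 1.05 SE (adjusted p = 0.640 by limma).

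Of 4 other CDK inhibitors in the fit, 0 passed before or after adjustment, with a median of 0.12, beside 0.43 over all tested genes. Cdkn1b, which encodes p27, differed by 0.35 ± 0.68 SE, and Cdkn1a, which encodes p21, by 0.21 ± 0.67 SE. The direction of both turned negative once each library was centred on its median, at -0.14 and -0.28. Cdkn1c at -2.22 lay outside the range of the mean differences of these 4 genes, -0.11 to 0.35. It was chosen for its difference, so that it stands apart from genes not so chosen is no result. Single embryos went beyond that range: Cdkn2d differed by -1.19, -1.92 and 3.23 in embryos A, B and C.

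The genes whose pattern over the 6 libraries was most like that of Meg3, by Pearson correlation of log2(FPKM + 1), were AI837181 (0.997), 1700007K13Rik (0.994), Ell2 (0.993), Herc3 (0.991) and Elmod3 (0.991). Rian ranked 7th at 0.989, the joined Meg3 entry had 0.921 and Cdkn1c -0.948. For Rian the most alike were AI837181 (0.994), Reep3 (0.993) and Elmod3 (0.992). For Cdkn1c they were Setd8 (0.998), Magt1 (0.988) and Slc1a2 (0.984). For H19 they were Ablim1 (0.993), Ndel1 (0.991) and Cwf19l1 (0.990), each at 0 in anterior C, where H19 was lowest. These correlations are a description over 6 libraries that share domain and depth, chosen as the highest among 10914 genes.

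Of the marker lists of cell types, those of nascent mesoderm and epiblast separated the groups in the direction of Meg3 and Rian. The groups were chosen by a T reporter and T is in the nascent mesoderm list, so that list is not independent of the labels. Nascent mesoderm markers (11 of 12 present) summed to 1.00 to 44.8 FPKM in anterior and 241 to 273 FPKM in posterior libraries. Between 2 and 4 of the 11 were above 0 in anterior libraries, and 11, 10 and 9 posteriorly, with T at 0 in posterior C. Epiblast markers (12 of 12) summed to 185 to 439 and 455 to 1828 FPKM, but Dppa5a alone gave 1419 FPKM of the posterior C sum. In embryo C, Otx2 (156 against 16.7 FPKM), Pou3f1 and Epcam were higher in anterior, and the other epiblast markers were higher in posterior. The mean level of the nascent mesoderm and epiblast lists, set against the median gene of each library, was higher in every posterior than in every anterior library. This is the direction of Meg3 and Rian. The part of these cells in the Meg3 and Rian values was not tested.

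Parietal endoderm and XEN markers (14 of 15) summed to 1248, 1839 and 375 FPKM anteriorly and to 467, 450 and 835 FPKM posteriorly. They were thus higher in anterior in embryos A and B and lower in embryo C. Above 0 were 13, 14 and 11 of the 14 anteriorly and 14, 14 and 12 posteriorly. In anterior C the defining markers Sox7 and Gata4 were listed at 0, while Sparc was at 272 FPKM and Fst at 53.3 FPKM. Cdkn1c was higher in anterior in all 3 embryos, and its highest level, 46.5 FPKM, was in anterior C. The part of these cells in the Cdkn1c values was not tested. Visceral endoderm markers (12 of 16) summed to 118 to 1173 FPKM in anterior and 770 to 3589 FPKM in posterior libraries, but Spink3 alone gave 753, 3276 and 634 FPKM of the posterior sums. The other 11 summed to 649, 869 and 107 FPKM anteriorly and 152, 313 and 136 FPKM posteriorly, which was lower posteriorly in embryos A and B and higher in C. In embryo C, Lrp2 alone gave nearly all of the anterior sum, at 106.8 FPKM, and 29.1 FPKM of the posterior one. In anterior C, where H19 was at 1.38 FPKM, 3 of these 12 were above 0 and Hnf4a and Sox17 were listed at 0. Their part in the H19 value was not tested.

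Trophoblast markers (12 of 14) summed to 327 to 480 and 306 to 692 FPKM, with Elf5 at 0 in 4 of 6 libraries. Fibroblast markers (5 of 10), which feeder cells would carry, summed to 5.47 to 24.8 FPKM in anterior and 5.36 to 14.2 FPKM in posterior libraries.

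**Figure D5:**
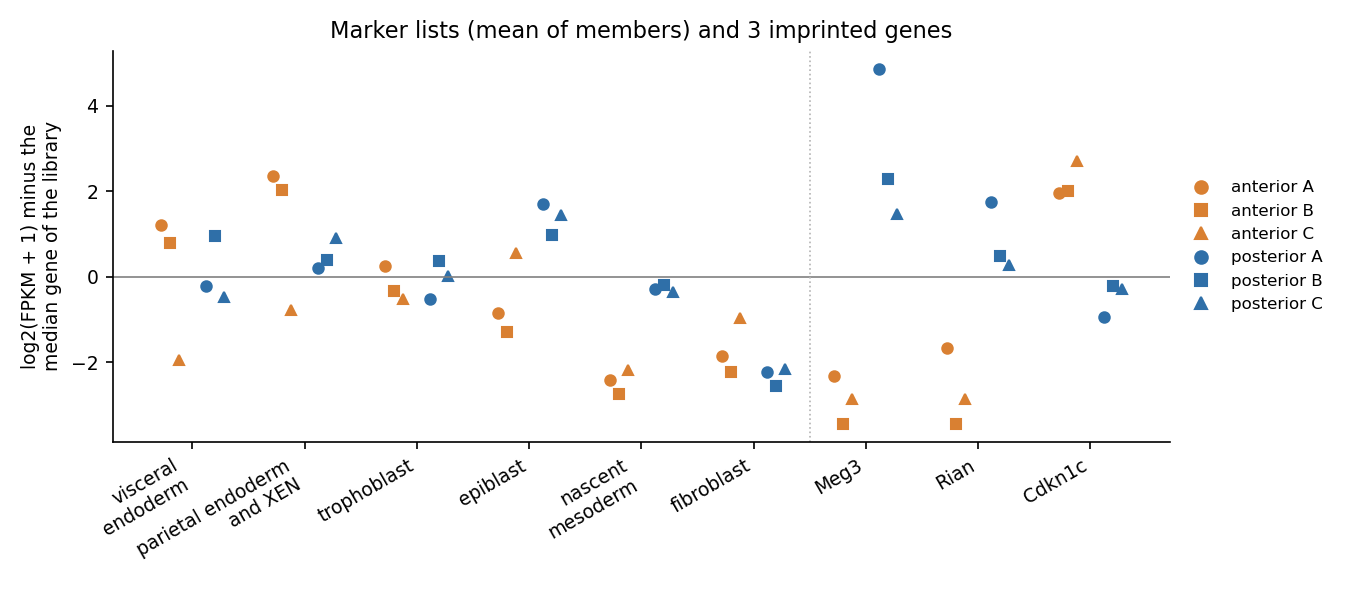
Mean level of 6 marker lists and level of Meg3, Rian and Cdkn1c in each library, in log2(FPKM + 1) minus the median gene of that library; orange is anterior, blue is posterior and symbols are embryos. Nascent mesoderm and epiblast markers separate the groups as Meg3 and Rian do, while parietal endoderm and XEN markers are lowest in anterior C, where Cdkn1c is highest.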

How the data were processed

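RNA from 6 dissected pieces was measured by Smart-seq2. Per the labels' protocols, reads were mapped to Ensembl version 38.77 and counted with HTSeq-count, and Cufflinks 2.0.2, TopHat2 2.0.4 and the mm10 build are named in the submitters' processing notes. The source tool of the table is not stated. The authors deposited log2 values, which from their decimals are log2(FPKM + 1) with a pseudocount of 1, and these were used unchanged. Entries whose names join several genes were kept as they stand.

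Genes averaging 1 FPKM or more were fitted with limma 3.58.1 in R 4.3.3, with embryo as block, an intensity trend and two-sided tests, and with Benjamini-Hochberg adjustment over all 10914 genes and a threshold of 0.05. The fit has 2 residual and 7.5 prior degrees of freedom and was tested on simulated data. Pairing rests on the dissection; deviations of paired pieces correlated at -0.07, 0.04 and -0.03 in A, B and C. The p-values rest on each gene's residual spread drawn toward a trend over all genes, so they do not measure a gene's own spread between these 3 embryos alone. Members' posterior minus anterior differences are means with SD over embryos. Differences on this scale understate changes at low levels, and a value of 0 is only listed at 0.

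The members and lists were chosen with earlier results of these data known. Named genes are the members, the Dlk1-Dio3 entries, the 6 other imprinted genes with the smallest p and the 6 with the highest means. To these were added 2 genes with the smallest p from each of 3 related lists, and 5 genes most correlated with Meg3 and 3 each with Rian, Cdkn1c and H19. Relative depth was taken from the commonest ratio of values under 1 FPKM, and 12 of 15 pairs of libraries fitted one solution. The pairs of anterior B with posterior A, anterior B with posterior B and posterior A with posterior C were off by 1 log2. Alternatives covered the pseudocount, filter, normalization, block and single embryos; leaving out the anterior A or C library was added after seeing the data.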

Additional observations from a re-analysis of the deposited data

How the results depend on the processing

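The mean difference of Meg3 and Rian was 4.52 to 5.52 with embryos left out in turn and 7.81 with a pseudocount of 0.1, which spreads values near 0. That of the other members, 0.12, ran from -0.42 to 0.51 with embryos left out and was -0.36 after quantile normalization and -0.37 with centred libraries. The count of genes at an adjusted p under 0.05, posterior minus anterior, went from 0 to between 0 and 25 with embryos left out (25 without A, 8 without C) and to 1 without the anterior C library. Among embryos that count went from 0 to 3 with no filter, with quantile normalization and with centred libraries, to between 2 and 34 with embryos left out, and to 4 without the anterior A library. Without the replicate block, 1031 genes (912 higher in posterior, 119 in anterior) passed an unadjusted p under 0.05, against 876 with it. The share of these calls that was higher in posterior libraries was 90.2%, but 65.6% after quantile normalization, 59.1% after centring, 73.4% without embryo A and 76.9% without the anterior A library. Centring gave 429 higher and 297 lower calls.

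Some small differences changed sign. Mcts2 ran from -3.28 to 0.12 with embryos left out. Cdkn1b was at -0.14 with centred libraries, -0.041 without the anterior A library and -0.30 to 1.07 with embryos left out. Cdkn1a was at -0.13 after quantile normalization, -0.28 with centred libraries and -0.32 to 0.48 with embryos left out. The cause was not tested. Among the members, H19 ran from -0.20 to 3.13 over all alternatives, Peg3 from -0.37 to 0.71, Peg10 from -1.03 to 0.38 and Igf2r from -0.54 to 0.30. In all, 18 of 239 recomputed differences had the other sign, from 8 of 27 differences. Meg3, Rian and Cdkn1c were among those that kept their sign. Their groups did not overlap and they were chosen on this contrast, so leaving out an embryo or a library could not change it. Relative depth, as estimated, was lower in all anterior libraries than in all posterior ones, but this order is uncertain. The direct pairs put posterior A below anterior B and posterior B level with it, each off the estimate by 1 log2. Depth and domain thus cannot be told apart, and an RNA at 0 in an anterior library may be present below detection.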
